A study of Danio rerio with 9 samples.

Results

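The uninjected zebrafish embryos of a BMP signaling experiment were described here on their own, as the baseline transcriptome of early gastrulation. They make up 3 of the 9 samples of the series and were chosen by their labels, as the 3 libraries marked uninjected. Each library was made from 10 pooled whole embryos of the wild type TE strain, which were dechorionated with Pronase, left without injection and frozen at shield stage, about 6.75 h post-fertilization (hpf). The other samples of the series, embryos given *bmp2b* or *chordin* mRNA, were not used, so no comparison between groups was made and no test was run. Nothing in the labels says whether the 3 pools came from separate clutches, and the spread given below is that between these 3 pools. Because whole embryos were pooled, more cells of a type and more RNA per cell cannot be told apart.

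At shield stage the embryo consists of a deep cell layer that is being sorted into ectoderm, mesoderm and endoderm, an outer epithelium called the enveloping layer, and a large yolk cell with nuclei at its surface, the yolk syncytial layer. The dorsal organizer, or shield, makes Chordin and other secreted inhibitors, whereas BMP ligands signal on the ventral side. The zygotic genome has become active by this time, but many transcripts laid down in the egg persist.

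The poly(A) RNA libraries held 15218498, 22372856 and 13621606 counts in replicates 1, 2 and 3, so that 1 CPM (1 count in 1000000 counts of a library) stood for 15.2, 22.4 and 13.6 counts. A gene with 3 or fewer counts in a library was taken as being at the detection limit, which lay at 0.197, 0.134 and 0.220 CPM. Of 41977 gene rows, 25113 had a count in at least 1 library and 13238 reached 1 CPM in all 3. The libraries did not keep the strand of a read, so reads of overlapping or antisense genes cannot be separated. Replicate 1 stood somewhat apart. Across the 8198 genes with a mean of at least 10 CPM, which are not independent of each other, the correlation of log2 CPM was 0.971 between replicates 1 and 2, 0.974 between replicates 1 and 3, and 0.982 between replicates 2 and 3. More than 2-fold apart were 2.16% of these genes between replicates 1 and 2, 1.90% between replicates 1 and 3 and 0.756% between replicates 2 and 3.

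The stage label was held against markers of tissues that form later. Of 22 such genes, 2 reached 1 CPM in all libraries, and the median of the list was 0.148 CPM. The embryonic globins *hbae1*, *hbbe1.1* and *hbbe3* and the lens crystallin *crygm2d1* had 0 counts in every library, so that levels above the detection limit of each library were not seen. *hbae3*, another globin, had 3, 0 and 5 counts, the heart myosin light chain *myl7* had 0, 1 and 0 counts, and the muscle light chain *mylpfa* had 0, 9 and 0 counts. These globins and light chains were thus at or near the detection limit. The 2 genes above 1 CPM in all libraries were the muscle actin *actc1b*, at 3.42, 1.43 and 1.62 CPM, and the neuronal RNA binding protein *elavl3*, at 10.6, 4.92 and 2.57 CPM. *elavl3* was highest in replicate 1, whereas the fast muscle myosin *myhz2* was highest in replicate 3, at 0.197, 0.313 and 3.82 CPM. Markers of the tissues present at shield stage were found for each list, with *sox17* and *otx2* as the defining markers of lowest level (below).

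**Figure D1:**
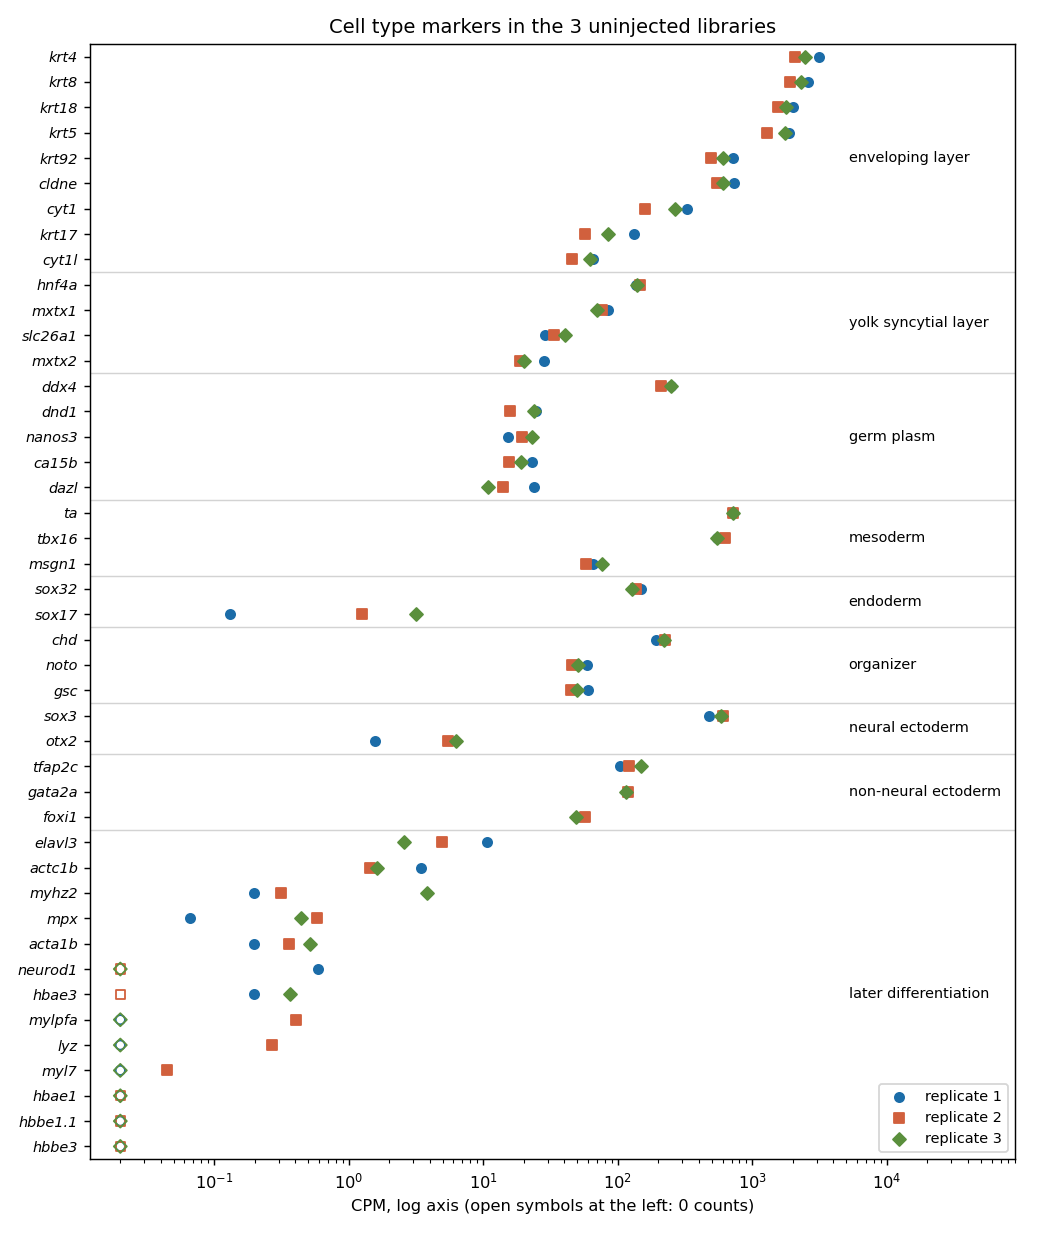
CPM of the defining marker genes of each cell type (rows) in the 3 uninjected libraries (circles, replicate 1, squares, replicate 2, diamonds, replicate 3) on a log axis. Markers of the enveloping layer and of the germ layers mostly lie above 10 CPM, *sox17* and *otx2* lie lower and are spread widely, and the markers of later tissues lie mostly below 1 CPM or at 0 counts.

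The most abundant transcripts came from the mitochondrial genome and from genes of translation, RNA binding and chromatin. By mean CPM, which counts reads without regard to transcript length, the mitochondrial cytochrome oxidase subunit *COX1* led with 23595, 12754 and 16946 CPM. The translation elongation factor *eef1a1l1* followed with 12769, 13708 and 13446 CPM, a coefficient of variation of 3.64%. The joined mitochondrial row of *ATP6*, *ATP8* and *COX3* had 13943, 7079 and 7953 CPM. After these came the chromatin protein *hmga1a*, with 7194 ± 940 CPM, and the RNA binding protein *hnrnpa0l*, with 6777 ± 588 CPM (SD, n = 3 each). Of the 25 most abundant genes, 4 rows lay in the mitochondrial genome and none encoded a ribosomal protein. Several others bind RNA, among them *khdrbs1a* (4958 CPM), *hnrnpa0b* (4690 CPM), *cirbpb* (4314 CPM), *cirbpa* (3607 CPM), *ybx1* (3312 CPM) and *pabpc1a* (3010 CPM). The cell cycle gene *ccnd1*, which encodes cyclin D1, had 2910, 2554 and 2779 CPM.

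The 10 most abundant genes held 7.85% ± 0.969 of all counts and the top 100 held 24.5% ± 1.00 (SD, n = 3 each). The share of the top 10 was 8.90%, 7.00% and 7.64% in replicates 1, 2 and 3. Counts were therefore not dominated by a few genes, and the 536, 597 and 570 most abundant genes of each library made up its first 50% of counts. The 112 genes at 1000 CPM or more held 25.8% ± 0.997 of the counts, the 1884 genes between 100 and 1000 CPM held 48.8% ± 0.537, and the 7111 genes between 1 and 10 CPM held 2.79% ± 0.0232 (SD, n = 3 each).

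Levels of different genes can be set side by side only per length, for which the FPKM that the authors computed with Cuffdiff over the uninjected libraries was used. It is 1 value per gene, with no replicate error. By FPKM the joined *ATP6*, *ATP8* and *COX3* row was first (24446), although it had rank 3 by CPM and holds several genes. It was followed by *eef1a1l1* (12219), *COX1* (9287) and LOC101885203 (9239), a gene without a name in the tables. The list then turned to ribosomal proteins, led by *rpl38* (6368), *rps12* (4760), *rpl29* (4567) and *rpl23* (4560), which made up 13 of the top 25. The replication-independent histone *h3f3a* (5082) and the splicing protein *snrpb* (4379) stood among them. Only 9 genes were in the top 25 by both measures. The ratio of CPM to FPKM had a median of 2.46 kb and ran from 0.251 to 14.8 kb between the 1st and 99th percentile. The order of genes therefore differs between the measures. *rpl38*, for example, had a mean of 673 CPM. The ratio is not a transcript length alone, since for some genes it exceeds their whole region. *nog1* had 4.08 kb on a region from position 10340779 to 10342921. The joined *ATP6*, *ATP8* and *COX3* row had only 0.395 kb on positions 8894 to 10589. Whether counts and FPKM assigned reads alike was not tested, so ratios by FPKM carry this limit.

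Against the median of 7.60 FPKM over the 13238 detected genes, the housekeeping list had a median of 1241 FPKM, the enveloping layer list 108, the maternal list 63.98, the ventral BMP list 48.1 and the endoderm list 46.7. The yolk syncytial layer list (22.3), the mesoderm list (21.5) and the organizer list (20.6) lay close to each other. Lower medians were found for non-neural ectoderm (12.96), neural ectoderm (8.86), germ plasm (7.63) and later differentiation (0.095). The ranges of the lists overlapped widely. The middle 50% of the mesoderm genes lay between 14.0 and 56.3 FPKM and that of the endoderm genes between 3.99 and 140.0 FPKM. The lists hold 191 chosen genes, of which 188 had a row of their own, and their medians depend on which genes were listed.

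**Figure D2:**
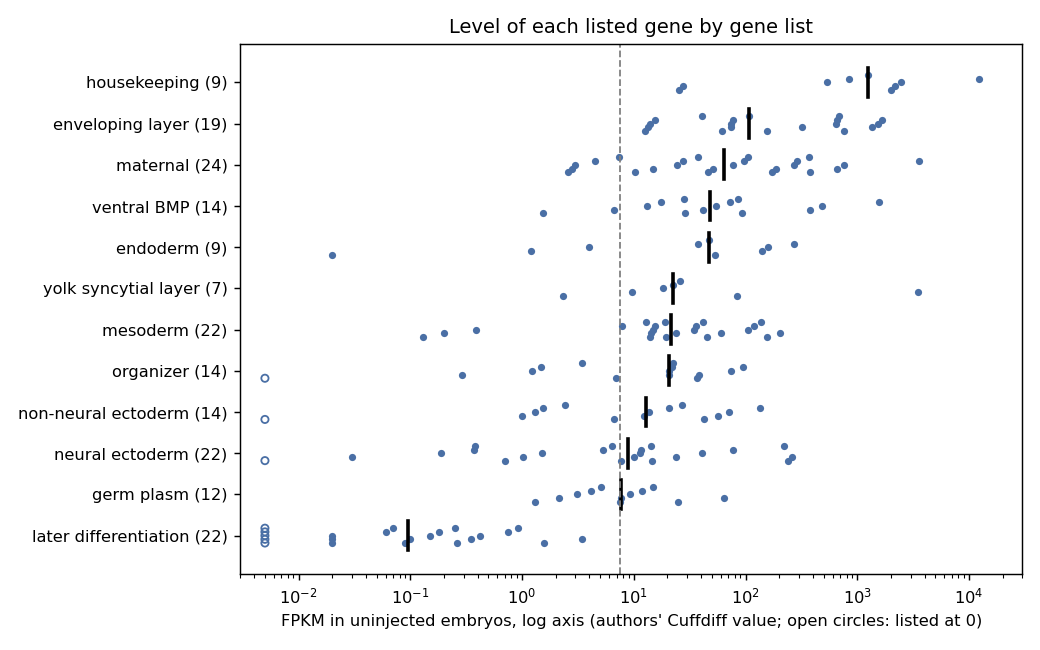
FPKM of every listed gene (points) by gene list on a log axis, with the list median (black bar), the number of genes with a row in parentheses, and the median of all detected genes (dashed line, 7.60 FPKM). The highest enveloping layer genes lie near the housekeeping median, most lists span more than a factor of 10, and later differentiation genes lie below the dashed line.

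Among the mesoderm genes, the pan-mesodermal T-box factor Brachyury (*ta*) was highest and also the steadiest, with 718, 717 and 712 CPM, a coefficient of variation of 0.456% against 0.92% from counting error alone. Its FPKM of 205 was 1.94 times that of *tbx16* (106), the T-box factor Spadetail of trunk mesoderm. *tbx16* had 545, 622 and 545 CPM. *tbx6l*, a T-box factor of ventrolateral mesoderm, was lower, at 19.1 FPKM. The even-skipped factor *eve1* of the ventral margin stood at 119 FPKM. By FPKM the Apelin receptor *aplnra* (154) was 2.56 times as high as *aplnrb* (60.2). By counts they were close, with 149, 130 and 138 CPM for *aplnra* and 102, 133 and 146 CPM for *aplnrb*. The ratio of CPM to FPKM of *aplnrb* exceeds its region, so its level per length is uncertain. The zinc finger factor *snai1a* (137 FPKM) was 5.78 times as high as *snai1b* (23.7 FPKM). By counts this gap was larger, with 368, 401 and 376 CPM for *snai1a* and 7.29, 9.92 and 9.18 CPM for *snai1b*. *snai1b* rested on 111, 222 and 125 counts. Factors of segmented or paraxial mesoderm differed. *msgn1* had 65.2, 58.1 and 76.6 CPM, whereas *tbx6* of the presomitic mesoderm had 0.723, 0.179 and 1.32 CPM. The myogenic factors *myf5* and *myod1* had means of 0.395 and 0.451 CPM and at least 1 library with 0 counts each. Of 22 mesoderm genes with a row, 19 reached 1 CPM in all libraries, and the remaining 3 were *tbx6*, *myf5* and *myod1*.

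The Nodal ligand *ndr2* (Cyclops), at 44.7 FPKM, was 3.44 times as high as *ndr1* (Squint), at 12.97 FPKM. *ndr2* had 24.6, 37.1 and 30.0 CPM and *ndr1* had 18.5, 9.83 and 11.3 CPM, so replicate 1 was lowest for *ndr2* and highest for *ndr1*. The Lefty inhibitors of Nodal were near each other by FPKM, with 35.7 FPKM for *lft2* and 34.2 FPKM for *lft1*. By counts *lft1* was the higher in each library, with 39.4, 31.6 and 36.1 CPM against 26.9, 31.2 and 26.4 CPM. Their coefficients of variation in CPM, 9.47% for *lft2* and 10.9% for *lft1*, are not an error of the FPKM gap. The FGF ligands *fgf8a* and *fgf3* had 13.9 and 14.7 FPKM, with coefficients of variation of 19.7% and 39.8% in CPM. By counts they were not close, with 49.9, 33.6 and 45.7 CPM for *fgf8a* and 6.70, 12.8 and 6.83 CPM for *fgf3*.

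Among the endoderm genes, most were abundant, and *sox17*, *foxa1* and *foxa2* were scarce. The chemokine receptor *cxcr4a*, which endoderm and other mesendoderm cells carry, had 316, 316 and 296 CPM (269 FPKM). *gata6* had 271, 281 and 273 CPM (159 FPKM), and *sox32*, the Sox factor that commits cells to endoderm, had 149, 137 and 128 CPM (140.0 FPKM). None of these 3 genes varied by more than 7.84%. *sox17*, which acts after *sox32*, had 2, 28 and 43 counts, or 0.131, 1.25 and 3.16 CPM. *foxa3*, of prechordal plate and endoderm, reached 52.7 FPKM, *foxa2* reached 3.99 FPKM, and *foxa1* had a single count in replicate 3. *foxa2* and *sox17* were both lowest in replicate 1.

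The organizer genes were led by *chd*, which encodes the BMP inhibitor Chordin. *chd* had 193, 225 and 221 CPM (95.4 FPKM) and stood 2.47 times above *gsc* (38.6 FPKM), the homeobox repressor of the prechordal plate. By FPKM it stood 27.6 times above the BMP inhibitor *nog1* (3.46 FPKM). By counts this gap was smaller, since *nog1* had 17.8, 10.5 and 14.1 CPM. The ratio of CPM to FPKM of *nog1* exceeds its region, so its level per length is uncertain. The notochord factor *noto* (74.5 FPKM) had 58.7, 45.9 and 50.8 CPM, and *gsc* had 60.1, 44.7 and 49.4 CPM. Both were highest in replicate 1 and lowest in replicate 2, whereas *chd* was lowest in replicate 1. The Wnt antagonist *dkk1b* (36.5 FPKM), *hhex* (22.55 FPKM), a homeobox repressor of the dorsal yolk syncytial layer, *foxd3* (21.9 FPKM), *lhx1a* (20.8 FPKM) and *admp* (20.5 FPKM), a BMP-like ligand made dorsally, came next. *dharma*, which starts the organizer in the blastula, had 2.76, 4.56 and 1.54 CPM. Other members of the list were lower. *shha*, the hedgehog ligand of the shield and notochord, had 11, 15 and 11 counts, and *ctslb* of the hatching gland lineage had 0 counts in each library. *six3b* of prechordal plate and forebrain had 5, 30 and 86 counts, or 0.329, 1.34 and 6.31 CPM.

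On the ventral side, the homeobox repressors *ved*, *vox* and *vent* differed in level. *ved* had 719, 804 and 808 CPM and the highest FPKM of the list (1571), 3.28 times that of *vox* (479 FPKM). *vox* in turn was 17.1 times as high as *vent* (28.05 FPKM). By counts both gaps were smaller, with 315, 321 and 297 CPM for *vox* and 35.9, 42.2 and 38.5 CPM for *vent*. The order of the 3 genes was the same in each library. Their spread between libraries was 6.45%, 3.88% and 8.23% in CPM, which is not an error of the FPKM ratios. The tables give *vox* and *vent* one shared region on chromosome 13, and how reads there were divided was not tested. The BMP pseudoreceptor *bambia* followed *vox* with 374 FPKM. *szl* (Sizzled), which protects Chordin from its proteases, had 91.9 FPKM, so that by FPKM *chd* and *szl* stood at a ratio of 1.04. By counts *chd* was the higher in each library, with 193, 225 and 221 CPM against 141, 147 and 157 CPM. Their coefficients of variation in CPM, 8.05% for *chd* and 5.62% for *szl*, are not an error of the FPKM ratio.

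Of the BMP ligands, *bmp2b* was highest at 85.2 FPKM, 2.06 times *bmp7a* (41.4 FPKM), with which its product pairs, and 6.46 times *bmp4* (13.2 FPKM). *bmp2b* varied little, with 106, 103 and 119 CPM. *bmp4* had 44.0, 79.7 and 90.1 CPM, *bmp7a* had 49.0, 87.9 and 62.2 CPM, and the helix-loop-helix inhibitor *id2a* had 37.7, 64.8 and 68.0 CPM. All of these last 3 were lowest in replicate 1. The Chordin protease gene *bmp1a* (28.7 FPKM) was 18.6 times as high as *tll1* (1.54 FPKM), which encodes Tolloid. All 14 genes of this list were detected.

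The neural ectoderm genes ranged from 0 to 262 FPKM. The SoxB1 factors *sox3* (262 FPKM) and *sox19a* (218 FPKM) and the zinc finger factor *zic2b* (241 FPKM) were far above the others. *sox3* had 476, 606 and 580 CPM, *zic2b* had 548, 644 and 630 CPM, and *sox19a* had 529, 551 and 569 CPM. *sox3* was 10.9 times as high as *sox2* (23.9 FPKM). The Iroquois gene *irx7* had 77.5 FPKM and *cyp26a1*, whose enzyme clears retinoic acid, had 40.4 FPKM. Other members of the list were lower. *otx2*, a forebrain and midbrain factor, had 1.58, 5.45 and 6.24 CPM, *otx1b* had 23.6, 26.6 and 15.6 CPM, and the eye field factor *rx3* had 1.25, 0.179 and 1.62 CPM. *neurog1*, the proneural factor, had 1, 0 and 1 counts, and *hoxb1b* had 0, 18 and 2 counts. *pax6a* was listed at 0 FPKM although it had 10, 0 and 15 counts. In all, 15 of 22 neural ectoderm genes were detected.

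Of the non-neural ectoderm genes, 12 of 14 were detected. The Kruppel-like factor *klf17* was highest (135 FPKM; 228, 158 and 169 CPM), then *gata2a* (70.4 FPKM; 118, 119 and 116 CPM), *gata3* (56.3 FPKM; 178, 128 and 157 CPM) and *foxi1* (42.4 FPKM; 49.7, 57.3 and 48.7 CPM). *gata2a* had a coefficient of variation of 1.32%, below the 2.3% of counting error. Of all genes between 100 and 1000 CPM, 3.08% lay at or under counting error. *klf17* and *gata3* were both highest in replicate 1 and lowest in replicate 2. The epidermal factor *tp63* had 2.44 FPKM and the border factors *dlx3b* and *dlx5a* had 1.53 and 0.99 FPKM. *msx2b* had 0 counts in each library, whereas *msx1b* had 12.3 FPKM.

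Of the lists for parts of the embryo, the enveloping layer had the highest median. Its keratins *krt8* (1659 FPKM), *krt18* (1544 FPKM) and *krt4* (1347 FPKM) stood close together. The ratio of *krt8* to *krt4* was 1.23 by FPKM. By counts *krt4* was the higher in each library, with 3115, 2067 and 2459 CPM against 2610, 1913 and 2295 CPM. Each of the 3 keratins varied by 13.2% to 20.8% between libraries, all in the same order of libraries. *krt4* was 5.15 times as high as *sox3*, the highest neural ectoderm gene. After them came *krt5* (757 FPKM), *krt92* (684 FPKM), the Ly6-related *lye* (651 FPKM) and the adhesion molecule *epcam* (649.8 FPKM). The claudin *cldne* had 728, 542 and 609 CPM (156 FPKM). Its ratio of CPM to FPKM exceeds its region, so its level per length is uncertain. All 19 genes were detected.

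The yolk syncytial layer list was headed by *apoeb*, an apolipoprotein, with 3072, 3411 and 3712 CPM. Its 3472 FPKM put it at rank 22 of the detected genes. *apoeb* was not among the defining markers of this layer. In pools of whole embryos its level cannot be assigned to a single tissue. *apoa1b* had 37.5, 45.1 and 65.3 CPM (84.04 FPKM), and *apoa2* had 20, 24 and 13 counts. The homeobox factors *mxtx1* and *mxtx2* had 25.6 and 18.1 FPKM, and the nuclear receptor *hnf4a* had 136, 146 and 138 CPM (22.3 FPKM).

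All 24 genes of the maternal list were detected, although the reads do not separate transcripts left from the egg from newly made ones. The mRNA binding protein *ybx1* was highest (3577 FPKM), and 2 chromatin components of the egg followed, an oocyte histone H2A listed as LOC100332229 (760 FPKM) and the linker histone *h1m* (664 FPKM; 628, 586 and 596 CPM). Of the factors that open the zygotic genome, *pou5f3* had 1397, 1652 and 1441 CPM and 288 FPKM, about 3 times the 95.8 FPKM of *nanog* (225, 210 and 187 CPM). The maternal SoxB1 factor *sox19b* was lower, with 35.4, 40.7 and 32.6 CPM (7.39 FPKM). By FPKM the zygotic *sox19a* was 29.6 times as high. By counts this gap was smaller, since *sox19a* had 529, 551 and 569 CPM. The ratio of CPM to FPKM exceeds the region of both genes, so their levels per length are uncertain. *gdf3* (Vg1), the maternal partner of Nodal, had 271 FPKM, and the egg nucleoplasmin *npm2b* (374 FPKM) was 36.6 times as high as *npm2a* (10.2 FPKM). Low values were found for the meiotic kinase *mos* (4.52 FPKM), the histone mRNA binding protein *slbp2* (2.56 FPKM) and *btg4* (2.82 FPKM), an adaptor for mRNA deadenylation, which had 7.49, 4.47 and 1.91 CPM. *eomesa*, the maternal T-box factor, had 41.7, 19.7 and 36.9 CPM.

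Germ plasm transcripts, which only a few cells inherit, were detected for all 12 listed genes. *ddx4* (Vasa) had 248, 209 and 250 CPM (64.2 FPKM). By FPKM it was 7.01 times as high as *nanos3* (9.16 FPKM). By counts this gap was larger, since *nanos3* had 15.2, 19.4 and 23.0 CPM. The ratio of CPM to FPKM of *nanos3* exceeds its region, so its level per length is uncertain. *dnd1* (Dead end) had 24.5, 15.9 and 23.9 CPM, *ca15b* had 23.1, 15.5 and 19.1 CPM, and *dazl* had 23.9, 13.9 and 10.8 CPM. The first 2 of these were lowest in replicate 2 and *dazl* was lowest in replicate 3. *celf1* (24.8 FPKM) is also known outside germ cells.

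Housekeeping genes varied little between the libraries. The glycolytic enzyme *gapdh* had 467, 468 and 452 CPM, *actb2* had 3798, 4038 and 3688 CPM and *rplp0* had 1062, 972 and 1009 CPM. The median coefficient of variation of the list was 4.60%. The cytoplasmic actins *actb2* and *actb1* stood at a ratio of 1.13 by FPKM. By counts *actb1* was the lower in each library, at 2556, 2479 and 2100 CPM. Their coefficients of variation in CPM were 4.66% for *actb2* and 10.3% for *actb1*. The TATA-binding protein gene *tbp* (27.4 FPKM) was at the level of many patterning genes.

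Between the 3 libraries, the coefficient of variation of CPM had a median of 12.7% over the 8198 genes at 10 CPM or more, against 3.86% from counting error alone, and 90% of these genes lay between 3.27% and 33.9%. It was 14.7% for genes between 10 and 100 CPM, 8.68% for those between 100 and 1000 CPM and 7.54% above 1000 CPM, where counting error gave 4.63%, 1.80% and 0.632%. The source of the spread beyond counting error, in the embryos or in the library preparation, was not tested. Leaving out replicate 1 gave a median of 8.82%, a value from 2 libraries. The 131 listed genes at 10 CPM or more had a median of 12.8%, close to that of all genes, and 20 of them varied by less than 5%. Of the 131, 3 lay at or under counting error, *ta* and *gata2a* among them. The share was 6.47% of all genes between 10 and 100 CPM and 3.08% between 100 and 1000 CPM. By list, the median was lowest for housekeeping (4.60%) and endoderm (7.47%) and highest for the enveloping layer (18.9%), with counting errors of 0.779%, 1.83% and 1.38%.

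**Figure D3:**
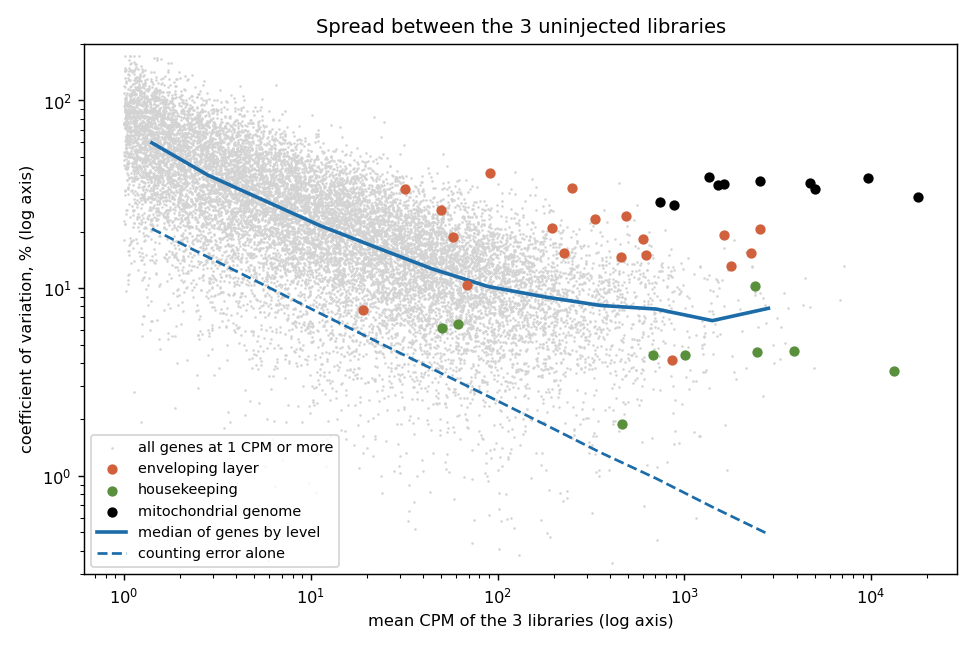
Coefficient of variation of CPM between the 3 uninjected libraries (y, %, log axis) against mean CPM (x, log axis) for genes at 1 CPM or more (grey), with the median by level (solid line) and the value that counting error alone gives (dashed line). Most housekeeping genes lie below the solid line, while most enveloping layer genes and all rows of the mitochondrial genome lie above it.

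Of the gene groups examined, the mitochondrial genome differed most between the libraries. Its 29 rows, of which 10 were detected, held 6.31%, 3.33% and 4.09% of the counts in replicates 1, 2 and 3. All 10 were highest in replicate 1 and lowest in replicate 2, whereas over all genes at 10 CPM or more 29.9% were highest in replicate 1 and 27.2% lowest in replicate 2. The cytochrome *CYTB* had 6679, 3542 and 3917 CPM, and *ND1*, a subunit of respiratory complex I, had 2123, 1180 and 1216 CPM. The nuclear gene *sdha*, a subunit of another respiratory complex, had 51.3, 53.5 and 47.4 CPM. *ND5* and *ND6* are given one shared region, with separate counts, and lie on opposite strands. How reads there were divided was not tested.

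Enveloping layer genes followed the same order of libraries. Of 19 genes, 17 were highest in replicate 1 and 16 lowest in replicate 2, against the 29.9% and 27.2% of all genes. The summed level was 14655, 10466 and 12669 CPM. All 8 keratins of the list were highest in replicate 1 and lowest in replicate 2, and their ratio of replicate 1 to replicate 2 ran from 1.30 for *krt18* to 2.29 for *krt17*. *krt17* had 131, 57.2 and 84.1 CPM, *cyt1* had 326, 158 and 266 CPM, and *krt4* had 3115, 2067 and 2459 CPM. The median log2 ratio to the mean of the 3 libraries was 0.20, -0.29 and -0.002, against -0.04, 0.03 and -0.001 over all genes. Between the other libraries, 17 of the 19 genes were higher in replicate 3 than in replicate 2, against 46.1% of all genes. This count covers only the order of replicates 2 and 3, and the high level in replicate 1 comes from that pool alone. Genes of one layer are not independent of each other. The exceptions to the order included *anxa1b*, with 25, 26.6 and 44.6 CPM, and *evpla*, with 196, 154 and 236 CPM. The part that sampling of the embryos, the share of mitochondrial reads or library preparation had in this pattern was not tested.

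Of 13 ventral BMP genes at 10 CPM or more, 10 were lowest in replicate 1 and none was highest there, against 43.5% and 29.9% of all genes. The median log2 ratios were -0.12, 0.11 and 0.09. The sum over the list was 2144, 2499 and 2507 CPM. Besides *bmp4*, *bmp7a* and *id2a*, *bambia* was low in replicate 1 at 457 CPM, against 582 and 584 CPM in the others, while *vox* (315, 321 and 297 CPM) and *smad6a* (20.8, 23.1 and 17.4 CPM) were lowest in replicate 3. Of 13 neural ectoderm genes, 8 were lowest in replicate 1, not far from the 43.5% of all genes, and none was highest there. Their median log2 ratio in replicate 1 was -0.09, against -0.04 over all genes. The 8 organizer genes at this level went the other way, with median log2 ratios of 0.20, -0.18 and -0.02, although *chd* and *lhx1a* were lowest in replicate 1. With mitochondrial genes left out of the totals, these medians kept their sign in replicates 1 and 2 for the enveloping layer, ventral BMP, neural ectoderm and organizer lists. By construction this rescaling moves all genes of a library by nearly the same amount. The distance of a list from all genes could therefore hardly change.

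**Figure D4:**
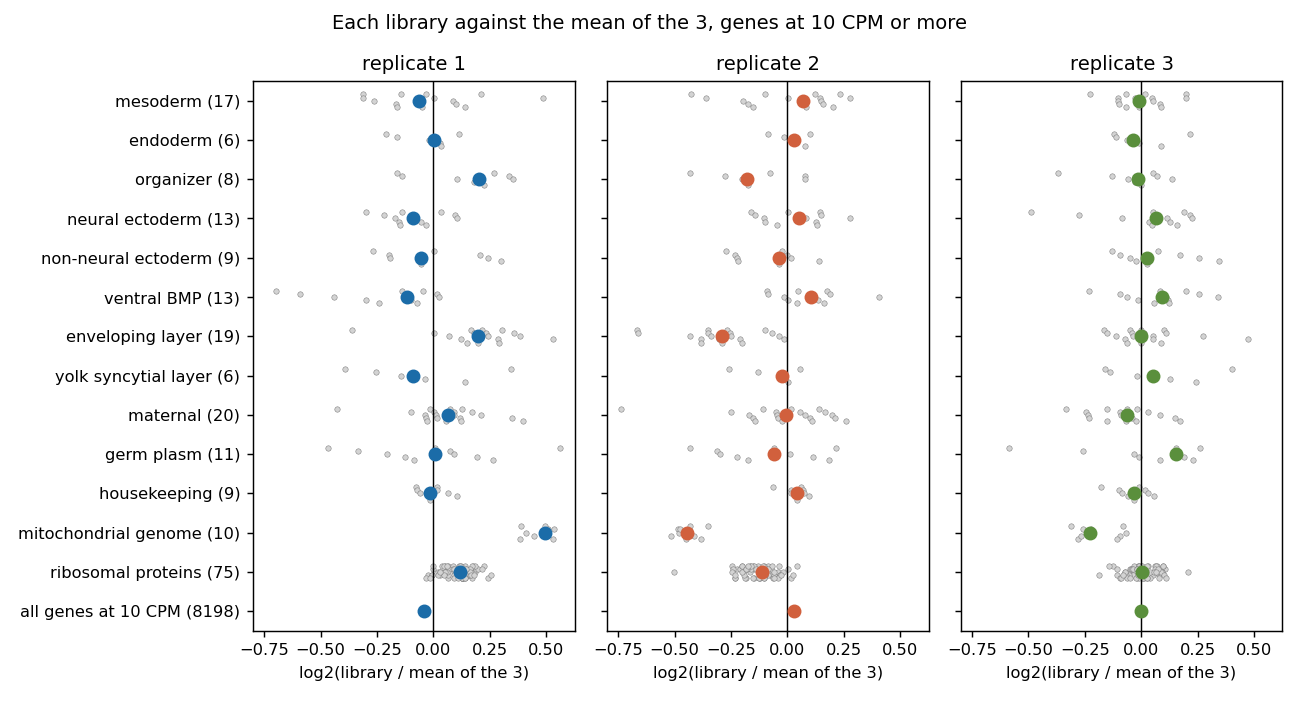
log2 ratio of each library to the mean of the 3 (x) for genes at 10 CPM or more, by gene list (rows, number of genes in parentheses), in replicates 1, 2 and 3 (panels). Small points are genes and large points list medians. The mitochondrial genome has medians of 0.50, -0.44 and -0.23, the enveloping layer 0.20, -0.29 and -0.002, and the ventral BMP list -0.12, 0.11 and 0.09.

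Among the 158 listed genes with a mean of at least 1 CPM, 11 had a coefficient of variation of at least 50%, and none of these reached 10 CPM. They were *sox17*, *dharma*, *six3b*, *sox21b*, *otx2*, *rx3*, *dlx5a*, *btg4*, *actc1b*, *myhz2* and *elavl3*. Of the 11, 4 were lowest and 5 highest in replicate 1, where 37.0% of all genes between 1 and 10 CPM were lowest and 37.1% highest. *sox21b*, a SoxB2 factor, had 41, 14 and 2 counts, and *dlx5a* had 28, 5 and 15 counts. Their coefficients of variation were 117% and 76.7%, against 23.2% and 25.2% from counting error. For *elavl3*, with 161, 110 and 35 counts, it was 68.4% against 10.1%. Libraries of one group thus gave quite different levels for these genes. *sox17* and *six3b* had the reverse pattern to *sox21b* and *btg4*, with the lowest value in replicate 1 and the highest in replicate 3.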

How the data were processed

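Poly(A) RNA of 3 pools of 10 uninjected embryos was sequenced by the authors without strand information. Reads were aligned to GRCz10. The submitters' processing notes name STAR 2.4.1b, Cuffdiff 2.1.1, HTSeq and other tools without their roles, and the program that counted reads is not given in the sources used here. The read counts per gene were deposited unnormalized as whole numbers, and the commas that separate their digits were removed. The authors' FPKM of uninjected embryos was deposited as 1 value per gene from Cuffdiff. The deposited tables also hold the authors' fold changes and p-values, which were not used, as were 15 other count columns. CPM was computed from total counts (depth 13621606 to 22372856), with pandas 2.3.3 and numpy 2.4.6 in Python 3.11.15. Genes were detected at 1 CPM in every library, and spread was taken for genes at a mean of at least 10 CPM. Counting error is Poisson. The steps were tested on simulated data.

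Listed genes were matched by symbol, or for 8 by an older symbol or gene ID in RefSeq. The members and lists were chosen with earlier results of these data known. Named genes are all listed genes, the 25 highest by CPM and by FPKM, the 20 most variable, and for each library the 10 most above and the 10 most below the others. No tests were run. Alternatives were other thresholds, thinning, median-of-ratios size factors, mitochondrial genes left out, and each library left out in turn. No sequences are shown, and the values of some listed genes are not reported here.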

Additional observations from a re-analysis of the deposited data

How the results depend on the processing

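The number of detected genes stayed within 1.5 times of 13238 under each setting tried, between 9397 at 5 CPM and 14658 at 0.5 CPM. Leaving mitochondrially encoded genes out lowered the share of the 10 most abundant genes to 5.93% and that of the top 100 to 21.97%. With the smaller totals the CPM median of every list rose by construction. Only those of the maternal and housekeeping lists, at 102 and 1063 CPM, moved by more than the spread between libraries. Leaving out members under 1 CPM gave medians of 48.5 CPM and 34.2 FPKM for mesoderm, 155 CPM for endoderm, 31.9 CPM for organizer, 26.3 CPM and 11.5 FPKM for neural ectoderm, 51.9 CPM for non-neural ectoderm, and 2.15 CPM and 0.91 FPKM for later differentiation, by construction higher than with all members. Leaving out 1 library at a time, the later differentiation median lay between 0.149 and 0.211 CPM. The median coefficient of variation was 20.3% for genes of at least 1 CPM and 8.61% for genes of at least 100 CPM. With a library left out, which leaves 2, it lay between 8.82% and 11.8%. All other list medians in CPM moved by less than the spread between libraries. So did the levels of all 274 named genes with median-of-ratios size factors. List medians in FPKM have no such spread. Without members under 1 CPM they were also 49.7 FPKM for endoderm, 21.4 FPKM for organizer and 13.6 FPKM for non-neural ectoderm.

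An alternative with RefSeq transcript lengths was not run, since transcript lengths were not used here. No paired analysis was possible because the values come from 1 group and no test. A level of 1 CPM stands for 13.6 to 22.4 counts, which limits the precision of the lowest genes. The library ratios under other scalings were chosen after seeing the data.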

Other observations

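The 75 ribosomal protein genes, a group formed after their values had been seen, had a median of 2005 FPKM and held 5.14%, 4.44% and 4.80% of the counts in replicates 1, 2 and 3. Of these genes, 58 were highest in replicate 1 and 63 lowest in replicate 2, against 29.9% and 27.2% of all genes at 10 CPM or more. *rpl29* had 784, 565 and 641 CPM and *rps25* had 949, 700.0 and 834 CPM, whereas *rps2* had 1616, 1672 and 1667 CPM. The order of libraries was that of the mitochondrial and enveloping layer genes, and its origin was not tested.

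The 20 genes that varied most between the libraries, among those with a mean of at least 10 CPM, were all outside the lists. *prkcq*, which encodes a protein kinase C, had 1.77, 9.92 and 18.7 CPM, a coefficient of variation of 83.6% against 7.92% from counting error. *pabpc1b*, a poly(A) binding protein, had 46.7, 15.3 and 12.3 CPM, while its relative *pabpc1a* had 3138, 2994 and 2898 CPM. The cytoskeletal linker *macf1a* had 23.8, 6.44 and 8.22 CPM, the complement gene *c7b* had 41.2, 12.6 and 17.8 CPM, and the filamin *flncb* had 10.4, 43.5 and 40.4 CPM. In each of these 4 genes replicate 1 was the library that differed. The keratin *krt91*, with 21.6, 6.57 and 12.6 CPM, was highest in replicate 1 and lowest in replicate 2, as the listed keratins were.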
